A study of Mus musculus with 20 samples.

Results

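Kap, the kidney androgen-regulated protein gene, was followed across 20 kidney RNA libraries of male mice, which were given testosterone or vehicle after removal of the testes. The gene was taken by its symbol from the deposited count tables, where it was 1 of 24762 joined genes and was present in all 4 tables. The libraries fell into 4 groups of 5. Wild type C57BL/6J males received vehicle or testosterone, and ARLmon/Y males, a second genotype on the same strain, received vehicle or testosterone. All 20 libraries came from orchidectomised animals and the kidneys were taken after 4 days of replacement, so the vehicle groups had no testicular androgen and there was no intact group. The labels list strain C57BL/6J, give no age and no testosterone dose, and do not tie libraries to animals. The p-values below therefore measure the spread between these libraries only.

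Kap encodes a small secreted protein made in the proximal tubule, the nephron segment that reclaims most of the filtered solutes. It is a classical model of androgen-controlled transcription in rodent kidney, where the hormone enters the cell and acts on target genes in the nucleus. Kap transcription also responds to other hormones, and its protein has been described as a partner of cyclophilin B.

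In the GENCODE M21 annotation of GRCm38, Kap (ENSMUSG00000032758.4) is a protein-coding gene on the minus strand of chromosome 6, from 133849851 to 133853762, with 707 bases of exon. The RefSeq start lies 95 bases inside that GENCODE start, and the positions below count from it. A stretch of upstream DNA and the core promoter are shown because Kap RNA responded to androgen and this is the DNA in which simple promoter motifs were looked for (the RefSeq window from 250 bases before to 50 after the start, GRCm38.p6). The first sequence covers chr6:133853763-133853917, bases -250 to -96, and the second covers chr6:133853681-133853710, bases -43 to -14, both read 5′ to 3′ on the minus strand, with the TATAAA box in capitals.
Kap upstream: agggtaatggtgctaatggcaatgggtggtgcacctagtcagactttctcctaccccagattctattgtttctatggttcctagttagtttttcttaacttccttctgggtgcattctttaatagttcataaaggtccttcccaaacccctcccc
Kap TATA: gagtacaggatgTATAAAagcccaggagga
The window held 1 TATAAA on the gene's strand, at -31, a motif found on either strand in 13.6% of the 32817 RefSeq windows of the same length. The androgen response hexamer AGAACA was not found on either strand of the Kap window and was found in 19.0% of all windows. The full palindrome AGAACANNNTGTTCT, which contains that hexamer on both strands, was also not found and was present in 0.00914% of windows. The letters of the CCAAT box (37.4% of windows) and of a C/EBP site, TTGCNNAA (10.8% of windows), were likewise not in these 300 bases.

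Total counts ran from 8342000 to 38101526 per library. Kap held 1.49% of all counts over the 20 libraries, so the counting error of its share was small, with a 95% Wilson interval at most 0.722% of the share to either side. Intervals of this kind cover counting error only. Levels are given in CPM, counts relative to the library total with trimmed-mean (TMM) scaling factors. In the vehicle groups 1 library each lay well above the others for Kap, GC078604 in wild type (beyond Dixon's 95% critical value for 5 libraries) and GC078618 in ARLmon/Y (within it), and the Kap comparisons they touch are given with and without them.

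In wild type kidneys on vehicle, Kap stood at 13339.5 CPM in GC078602, 11878 in GC078603, 28585 in GC078604, 10152 in GC078605 and 9962 in GC078606. GC078604 was 2.87 times the lowest library of the group, and the other 4 libraries lay close together. With testosterone, Kap stood at 45434 CPM in GC078607, 39143.5 in GC078608, 40641 in GC078609, 41089 in GC078610 and 30826 in GC078611. Every testosterone library was above every vehicle library, although the lowest of the former (30826 CPM) was near the level of GC078604. In raw terms Kap took between 1.01% and 2.75% of a library's counts on vehicle and between 2.79% and 3.95% with testosterone.

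**Figure D1:**
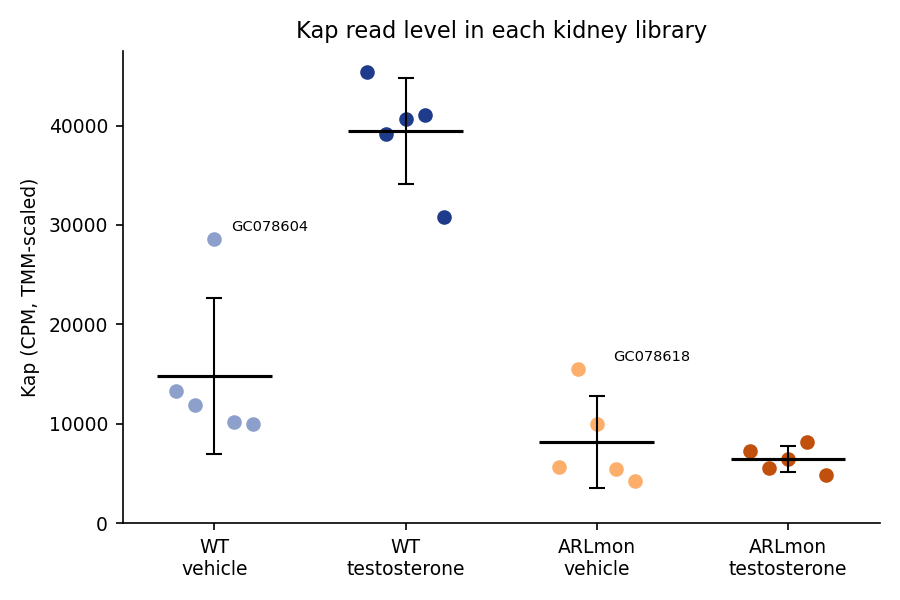
Kap in each of the 20 libraries, in CPM with TMM scaling on a linear axis from 0, with group means as lines and SD as bars (n = 5). The 5 wild type testosterone libraries lie between 30826 and 45434 CPM, above all other libraries, and GC078604 and GC078618 are the highest of their vehicle groups.

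Testosterone raised Kap in wild type kidneys, from 14783 ± 7837 CPM (SD, n = 5) to 39427 ± 5347 CPM (SD, n = 5). The log2 change was 1.42 ± 0.32 (SE), a 2.67-fold difference with a 95% interval of 1.69 to 4.21-fold, and edgeR's quasi-likelihood test with Benjamini-Hochberg adjustment gave an adjusted p of 0.00329. Of the 15549 genes tested, 9.36% were called higher in this comparison at an adjusted p under 0.05. An exact two-sided permutation test on the log2 CPM of Kap alone gave p = 0.00794, the smallest that 5 against 5 libraries allow (0.0132 after adjustment over 5 pairs of groups). All 25 pairs of a testosterone and a vehicle library had the former higher, and 8.34% of the genes tested had groups separated upward in this way. Without GC078604 the log2 change was 1.80. These are bulk tissue libraries, in which more Kap RNA per cell and a larger share of Kap-producing cells cannot be told apart.

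Many genes responded by a larger fold than Kap, and none of those called higher gained more counts. Its log2 change ranked 187 by size among the 1455 genes called higher. Its gain of 24643 CPM was the largest of those genes, 4.39 times the next, which was the 5616 CPM gained by Acsm2, an acyl-CoA synthetase of kidney and liver. The Kap gain made up 17.1% of the summed gain of the 1455 genes. Its transcript is short, so a sum was also taken on a per-length scale over 1409 genes with a length. There, counts were divided by exon length and rescaled to a fixed total per library, without TMM factors. Kap made up 55.3% of that sum, 22.1 times the next gene, the cytochrome P450 Cyp4b1. With a fixed total, a rise in Kap lowers the values of other genes, so this percentage is not directly comparable with the 17.1%. By count, Kap was the most abundant of all genes in each of the 5 wild type testosterone libraries, ahead of the mitochondrial transcripts, and on the per-length scale it was also first in all 5. Its mean per-length share was 13.2% of the library there, against 5.41% on vehicle. In the vehicle libraries of wild type its rank per length was already 1 to 4.

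In ARLmon/Y kidneys Kap stayed expressed in every library, but testosterone did not detectably raise it. On vehicle it stood at 5699 CPM in GC078617, 15525.5 in GC078618, 9935 in GC078619, 5489 in GC078620 and 4232 in GC078621. With testosterone it stood at 7236 CPM in GC078612, 5539.6 in GC078613, 6419 in GC078614, 8152 in GC078615 and 4876 in GC078616. The ranges overlapped, and the highest and the lowest of the 10 libraries were both on vehicle. The means were 8176 ± 4637 CPM (SD, n = 5) and 6445 ± 1306 CPM (SD, n = 5), and the log2 change was -0.34 ± 0.31 (SE), with a 95% interval of -0.99 to 0.30 and an adjusted p of 0.776 in edgeR. The upper end of that interval lies below the lower end of the interval in wild type (0.76). No gene was called in this comparison (percent called 0) by edgeR, DESeq2 or limma-voom. Of the 15549 genes tested, 812 had an unadjusted p under 0.05 in edgeR, near the share of 0.05 that no effect at all would give. The sign rests on 1 library, since the log2 change was 0.0235 without GC078618.

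The testosterone effects of the 2 genotypes differed by their own test. The log2 change of Kap in ARLmon/Y minus that in wild type was -1.76 ± 0.44 (SE), with a 95% interval of -2.68 to -0.84 and an adjusted p of 0.0207 in edgeR. In the same test 3.34% of genes were called with a lower effect in ARLmon/Y. Leaving out each library in turn kept this difference between -2.14 and -1.39, with an adjusted p of at most 0.0448.

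Set against wild type under testosterone, Kap was 6.12-fold lower in ARLmon/Y (95% interval 3.81 to 9.83-fold, log2 difference -2.61 ± 0.33 SE), with an adjusted p of 3.1e-06 in edgeR. No ARLmon/Y library reached any wild type library (0 of 25 pairs), and the exact permutation p was 0.00794. This was the comparison with the most calls, 15.5% of genes tested being lower in ARLmon/Y, and 13.1% had groups separated downward. Under vehicle the difference was smaller and did not pass the test. Its log2 value was -0.85 ± 0.31 (SE), with a 95% interval of -1.504 to -0.21, an adjusted p of 0.137 in edgeR and an exact permutation p of 0.0794, and in 4 of 25 pairs the ARLmon/Y library was higher. Of all genes tested, 2.38% were called lower in that comparison. Here the high libraries moved the value both ways. Without GC078604 the log2 difference was -0.47 with an adjusted p of 0.282 in edgeR, without GC078618 it was -1.22 with 0.0156, and without both it was -0.84 with 0.0236.

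Kap was lower in ARLmon/Y kidneys given testosterone than in wild type kidneys given vehicle. Each of the 5 former libraries was below each of the 5 latter (0 of 25 pairs higher, a downward separation that 2.09% of genes tested had). The log2 difference was -1.20 ± 0.31 (SE), with an adjusted p of 0.0387 in edgeR, in a comparison that called 1.78% of genes lower. That call is the least firm of those reported. It was lost when the deposited log2 values were tested with limma (adjusted p 0.0857) and when GC078604 was left out (log2 difference -0.81, adjusted p 0.134) or any 1 of GC078609, GC078610, GC078612, GC078613, GC078614 and GC078616 (adjusted p 0.0506 to 0.108 in edgeR), while without both GC078604 and GC078618 it was -0.81 with 0.0258. The 5 comparisons share groups and are therefore not independent of one another. In the order of group means, wild type with testosterone was followed by wild type on vehicle, ARLmon/Y on vehicle and ARLmon/Y with testosterone. The wild type groups did not overlap, whereas wild type on vehicle overlapped with ARLmon/Y on vehicle, and the ARLmon/Y groups overlapped with each other.

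**Figure D2:**
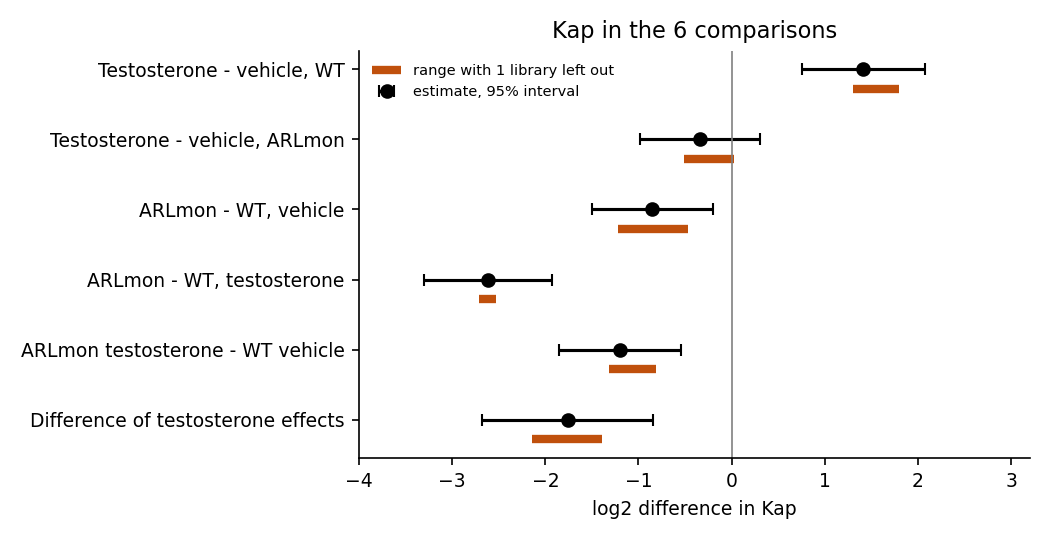
Log2 differences of Kap in the 5 comparisons of groups and in the difference of the testosterone effects (log2 scale on the horizontal axis), with 95% intervals from edgeR, and the range of values obtained when each library was left out in turn. The wild type testosterone effect of 1.42 and the genotype difference of -2.61 under testosterone lie clear of 0 in interval and range, and the interval of the testosterone effect in ARLmon/Y spans 0.

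The deposited normalised table put the group means in the same order. On its log2 scale Kap averaged 14.84 in wild type vehicle, 16.23 in wild type testosterone, 13.998 in ARLmon/Y vehicle and 13.83 in ARLmon/Y testosterone. The groups of wild type kidneys did not overlap there, with a lowest testosterone library at 15.895 and GC078604 at 15.832.

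Kap had a wider spread between libraries of a vehicle group than Odc1, an androgen-raised gene that encodes ornithine decarboxylase, the first enzyme of polyamine synthesis. The coefficient of variation of Kap CPM was 53.0% in wild type vehicle and 56.7% in ARLmon/Y vehicle, against 13.6% and 20.3% in the testosterone groups of the same genotypes. For Odc1 it was 15.7% and 11.98% on vehicle and 7.91% and 14.3% with testosterone. The difference in spread between vehicle and testosterone groups was not tested. Without the highest library of each vehicle group the mean was 11333 ± 1591 CPM (SD, n = 4) in wild type and 6339 ± 2483 CPM (SD, n = 4) in ARLmon/Y. Among the 83 genes averaging at least 1000 CPM over all libraries, Kap had the largest pooled within-group SD, 0.52 on the log2 CPM scale against a median of 0.25. That place rested on GC078604 and GC078618, since without them the pooled SD of Kap was 0.32, the median 0.21, and 16 of the 83 genes had a larger SD. Group by group, 5 of those genes had a larger SD than Kap in wild type vehicle and 0 in ARLmon/Y vehicle, whereas 25 and 23 did in the wild type and ARLmon/Y testosterone groups.

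**Figure D3:**
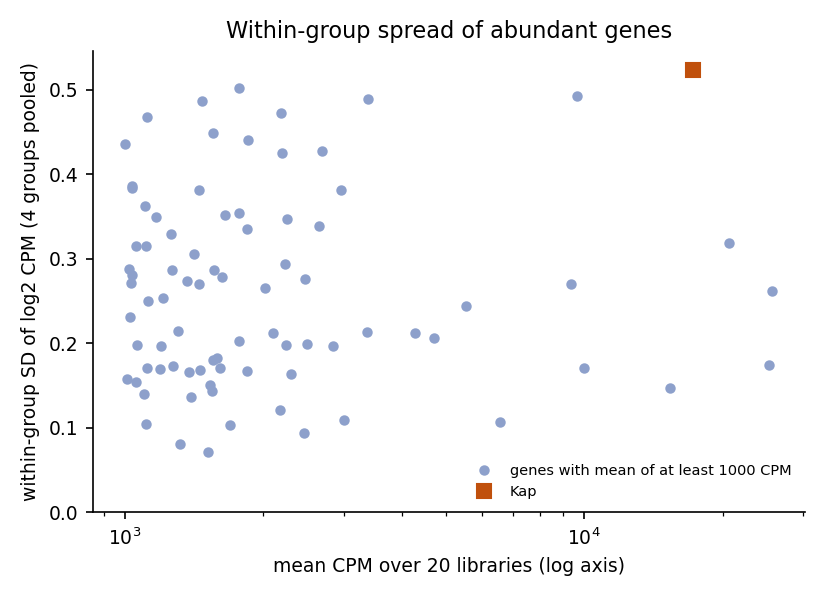
Pooled within-group SD of log2 CPM (vertical axis) against mean CPM over the 20 libraries (horizontal log axis) for the 83 genes that averaged at least 1000 CPM. Kap is the square, with the highest SD of them all, 0.52 (0.32 without GC078604 and GC078618), and circles are the other genes.

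GC078604, with 25506705 counts, was deeper than 3 of the other 4 in its group, and GC078618, with 11569255, was the shallowest of its own. Over the deviations of the 20 libraries from their group means, Kap had a Pearson r of -0.02 (Spearman rho -0.16) with log2 depth, 0.32 (rho 0.25) with the mean of 14 proximal tubule markers, 0.16 (rho 0.16) with that of 10 markers of its straight part and 0.02 (rho -0.03) with 8 tubular injury markers. Permutation p-values for these 4 relations and the next, adjusted over 5 relations, were all at least 0.652 for r and 0.700 for rho. With the main axis of within-group variation, the first principal component of the deviations of all other genes (30.42% of their variance), r was 0.45 and rho 0.16 (permutation p 0.130 for r and 0.560 for rho, adjusted 0.652 and 0.700). That value rested on the 2 libraries, as r was -0.15 without them. The relation with the straight-part markers turned to -0.12 without the 2 libraries farthest from the median of those markers (GC078615 and GC078621), and it was 0.36 without GC078604 and GC078618.

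Likeness to Kap was sought among 10824 tested genes averaging at least 5 CPM, leaving out symbols that are predicted-gene or clone names. The genes whose log2 CPM followed Kap most closely over all 20 libraries were Coasy (r = 0.97), Slc22a2 (0.97), Acy3 (0.96), Cndp2 (0.96) and P4hb (0.96). Coasy encodes the enzyme of the last steps of coenzyme A synthesis, Slc22a2 an organic cation transporter, Acy3 an aminoacylase, Cndp2 a dipeptidase and P4hb a protein disulfide isomerase. These correlations are descriptions over points that share libraries, groups and scaling, and 128 genes had an r above 0.9. The genes that ran most opposite were Abcc4 (r = -0.95), an efflux pump for organic anions, St3gal2 (-0.95), Agpat9 (-0.93), Cerk (-0.93), which encodes ceramide kinase, and Abcb1a (-0.93), the P-glycoprotein pump. Without GC078604 and GC078618, 4 of the 5 most like stayed among the first 5, and by Spearman rho 3 did. Of the 5 most opposite, 0 and 1 stayed in these settings, although without the 2 libraries each kept an r of -0.93 or below. Slco1a1, an organic anion transporter of the proximal tubule, had an r of 0.91 (rank 96 of 10824), and Odc1 had 0.85 (rank 342).

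With group means removed, the genes nearest to Kap were Coasy (r = 0.88), Slc22a2 (0.87), Ebp (0.87), Vill (0.87) and Slc5a10 (0.87). For Odc1 r was 0.27 and for Slco1a1 it was 0.25. Slco1a1 stood at 0.573 CPM or less in every ARLmon/Y library, too near the floor for its deviations there to be read. The most opposite to Kap were Abcc4 (-0.84), Ccbe1, Ctif, Myrf and Kirrel. Without GC078604 and GC078618 the within-group r was 0.59 for Coasy, 0.71 for Slc22a2 and -0.54 for Abcc4, and none of the 5 nearest genes kept its place among the first 5. The 2 libraries can be read directly in Coasy. In wild type on vehicle Coasy stood at 184 CPM in GC078602, 205 in GC078603, 268 in GC078604, 193 in GC078605 and 186 in GC078606. In ARLmon/Y on vehicle it stood at 162 CPM in GC078617, 219 in GC078618, 170.1 in GC078619, 139 in GC078620 and 137 in GC078621. The same libraries were highest for Coasy as for Kap, by a smaller factor. Abcc4 was lowest in them, at 47.0 CPM in GC078604 against 68.5 to 88.2 in the rest of its group, and at 100.6 CPM in GC078618 against 149 to 227. Coasy and Abcc4 were chosen for their within-group correlation with Kap, which leaned on these libraries, so their levels here are a description only.

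**Figure D4:**
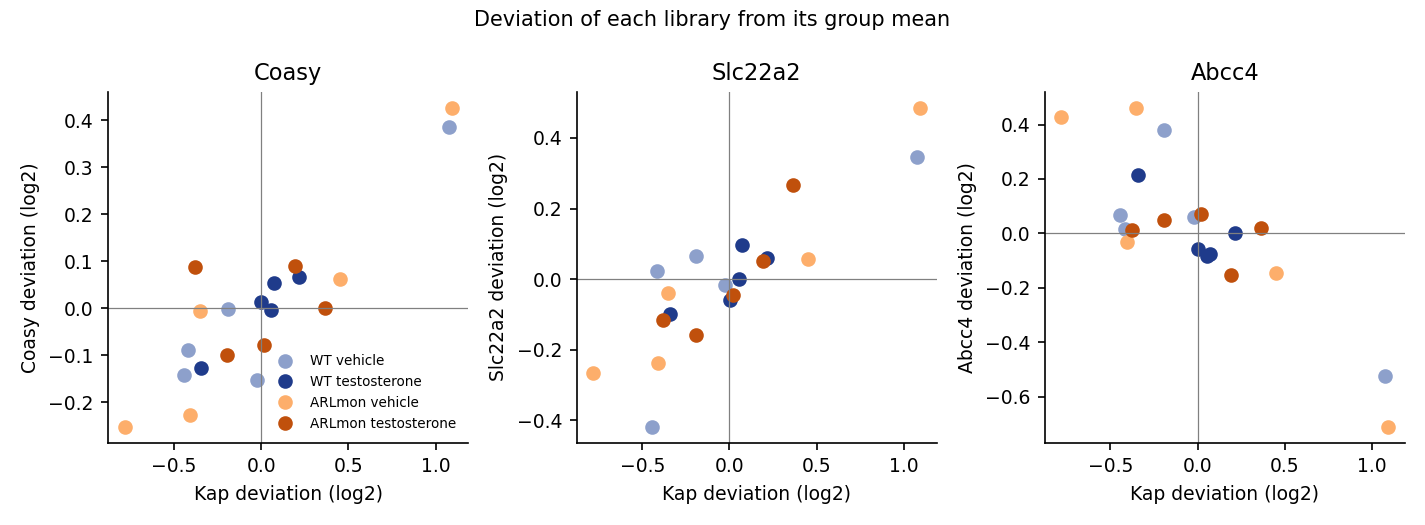
Deviation of each of the 20 libraries from its group mean in log2 CPM, Kap on the horizontal axis and Coasy, Slc22a2 or Abcc4 on the vertical axis, coloured by group. GC078604 and GC078618 are the pair at the far right, where Kap is 1.08 and 1.09 above its group means, high for Coasy and Slc22a2 and low for Abcc4. Coasy, Slc22a2 and Abcc4 were chosen for following or opposing Kap over these libraries.

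Genes chosen for following Kap over all 20 libraries share its pattern across the groups by that choice, so their group levels are given as a description only. Mean Coasy levels were 207 CPM in wild type vehicle, 368 with testosterone, 165 in ARLmon/Y vehicle and 157 with testosterone. Cndp2 averaged 732, 3274, 325 and 331 CPM in the same order. Abcc4, chosen as an opposite, averaged 69.0, 32.2, 172 and 140.1 CPM.

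With earlier results of these data known, a list was made of 23 other genes that testosterone is known to raise in mouse kidney. Counts over these genes are therefore a description and no independent result. In wild type 20 of them rose and 1 fell (15.7% of all genes tested were called, 9.36% higher and 6.36% lower), with a median log2 change of 2.56 against -0.03 over all genes tested, so that Kap, at 1.42, was below the list's median. Odc1 stood at 187, 206, 262, 189 and 186 CPM in the vehicle libraries GC078602 to GC078606, and at 1636, 1328, 1456, 1550.5 and 1571 CPM in the testosterone libraries GC078607 to GC078611. The 2 sets of libraries were far apart, and the log2 change was 2.87 ± 0.12 (SE) with an adjusted p of 9.14e-13 in edgeR. Odc1 was also highest in GC078604 among the vehicle libraries, by a smaller margin than Kap. Slco1a1 rose from 15.4 to 22.9 CPM on vehicle to between 1097 and 1715 CPM, Ccl28, a chemokine, from a mean of 3.80 to 95.3 CPM, and Angptl7, a secreted angiopoietin-like protein, from 2.89 to 59.6 CPM. Agt, which encodes angiotensinogen, was the member that fell, from a mean of 127 to 51.8 CPM (log2 change -1.29 ± 0.16 SE, edgeR adjusted p 3.38e-06). Akr1c21 and Cyp4a12b did not pass the test, with log2 changes of -0.36 and -0.82.

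In ARLmon/Y none of the 23 passed the test for testosterone in either direction, and their median log2 change was 0.09 against 0.01 over all genes. The test of the difference between the genotypes' responses called 19 of the 23 lower in ARLmon/Y, with Agt the 1 called higher, and Kap was called lower with them (4.77% of all genes tested were called, 3.34% lower and 1.42% higher). Under vehicle 15 of the 23 were lower in ARLmon/Y and none higher (4.37% of all genes tested were called, 2.38% lower and 1.99% higher), with a median log2 difference of -1.72, beyond the -0.85 of Kap. Members differed there. Odc1 did not pass the test between the genotypes on vehicle, with a log2 difference of -0.03 ± 0.12 (SE) and ARLmon/Y libraries from 168 to 233 CPM, whereas Slco1a1, at 15.4 CPM or more in each wild type vehicle library, was listed at 0 to 0.573 CPM in the 5 ARLmon/Y vehicle libraries. Under testosterone 21 of the 23 were lower in ARLmon/Y and 1 was higher (31.1% of all genes tested were called, 15.5% lower and 15.6% higher), with a median of -3.74. The summed level of the 23 genes was 30807 to 37203 CPM in the wild type testosterone libraries and 4788 to 5642 CPM in those of ARLmon/Y.

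**Figure D5:**
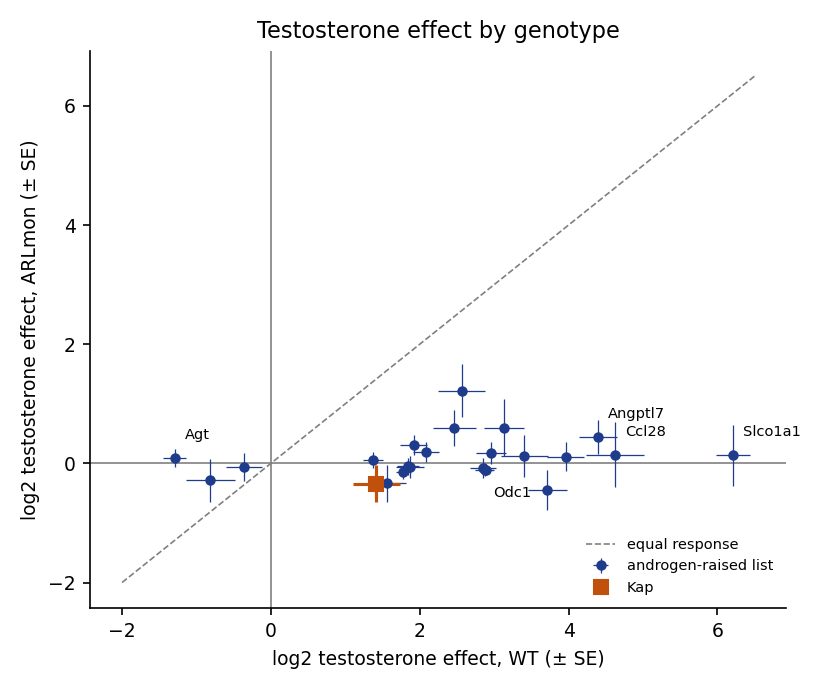
Log2 effect of testosterone in wild type (horizontal axis) and in ARLmon/Y (vertical axis) for Kap and the 23 other androgen-raised genes, each with its SE, and the line of equal response. In wild type 20 of the 23 and Kap (1.42) lie to the right of 0 and passed the test, and in ARLmon/Y none passed it.

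In a list of 15 chaperones and cofactors of steroid receptors, 3 rose with testosterone in wild type and none fell (9.36% of all genes tested were called higher), with a median log2 change of 0.19 against -0.03 over all genes. They were Fkbp5, an immunophilin of steroid receptor complexes, which rose from 67.0 to 178 CPM (log2 change 1.42 ± 0.28 SE, edgeR adjusted p 0.00107), Dnaja1 (0.73 ± 0.13), a co-chaperone, and Hsp90aa1 (0.42 ± 0.12), a chaperone that was named after its value was seen. In ARLmon/Y none of the 15 passed the test, and the difference of the 2 responses was called for Fkbp5 alone (-1.42 ± 0.39, edgeR adjusted p 0.0397). Over all genes tested, 3.34% were called lower and 1.42% higher for that difference. Under testosterone 7 of the 15 were lower in ARLmon/Y and none higher (15.5% of all genes tested were called lower). On vehicle Fkbp5 alone was lower (-1.18), beside 2.38% of all genes tested called lower.

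A second list held 13 genes, 8 hormone receptors, 3 C/EBP factors and the cyclophilins A and B. Testosterone raised 1 of them in wild type and lowered 3, beside 9.36% of all genes tested called higher and 6.36% called lower. The list's median log2 change was -0.09. Ghr, the growth hormone receptor, rose from 559 to 1009 CPM (log2 change 0.85 ± 0.20 SE, edgeR adjusted p 0.00595). Prlr, the prolactin receptor, fell from 77.6 to 5.23 CPM (-3.89 ± 0.31, adjusted p 9.15e-09), and it averaged 189 CPM in ARLmon/Y on vehicle and 223 CPM with testosterone. Cebpa, a transcription factor of the C/EBP family, fell from 34.3 to 18.7 CPM (-0.88 ± 0.16), and Thra, a thyroid hormone receptor, from 77.5 to 63.2 CPM (-0.29 ± 0.09). Against wild type, ARLmon/Y had higher Prlr and Cebpa under both vehicle and testosterone, and under testosterone also higher Cebpd and Nr3c2 and lower Ghr and Vdr. Of all genes tested, 1.99% were called higher in ARLmon/Y on vehicle, and 15.6% higher and 15.5% lower under testosterone. The remaining members of the list passed the test in none of these 3 comparisons.

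Marker genes of the proximal tubule, where Kap is made, were strongly expressed in every group. The 14 markers summed to between 14254 and 22705 CPM in wild type vehicle libraries, 21238 to 23811 with testosterone, 16884 to 20568 in ARLmon/Y vehicle and 17406 to 19948 with testosterone. In wild type 3 of the 14 rose and 2 fell with testosterone (9.36% of all genes tested were called higher and 6.36% lower), with a median log2 change of 0.03 against -0.03 over all genes. Among them Slc22a6, an organic anion transporter, rose by 0.87 ± 0.12 log2 (SE) and Slc27a2, a fatty acid transport protein, by 0.80 ± 0.14. Other markers had a lower wild type mean with testosterone, such as Gatm (1062 to 622 CPM) and Aqp1 (1168 to 924). The same held for Slc13a3 (793 to 636 CPM), Slc5a2 (612 to 481) and Fxyd2 (1688 to 1547). Of the 10 genes that mark the straight part 5 rose and 1 fell in wild type (median 1.03), and their summed level went from 1756 to 2865 CPM on vehicle to 5459 to 6929 CPM with testosterone. Atp11a was the largest member with testosterone, its mean going from 459 to 2978.5 CPM. Means were lower with testosterone for Slc6a18 (936 to 704 CPM), Mgst1 (152 to 54.7), Slc5a1 (71.3 to 66.0) and Slc22a13 (53.9 to 49.3). In ARLmon/Y the summed level was 1156 to 2256 CPM on vehicle and 1519 to 3297 CPM with testosterone, and none of the 10 passed the test. The androgen-raised list also holds 3 of the 5 that rose, Slc22a30, Slc7a13 and Cyp7b1, and the part of these changes in the Kap result was not tested.

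Among markers of other cell types, those that passed the test for testosterone in wild type had fallen. All 6 podocyte genes fell with testosterone in wild type (median log2 change -0.53, beside 6.36% of all genes tested called lower), Podxl from 272 to 191 CPM, and their summed level went from 399 to 599 CPM to between 305 and 386 CPM. The injury list of 8 had 1 that fell, Spp1 (osteopontin), from 1984 to 754 CPM (log2 change -1.40 ± 0.26 SE). Spp1 had the highest mean of the list in each group, so the summed level leaned on it. That sum was 1870 to 3878 CPM on vehicle and 916 to 1435 CPM with testosterone in wild type, 3070.1 to 3696 and 2503 to 8266 CPM in ARLmon/Y. In wild type, no gene passed the test among 6 endothelial, 6 thick ascending limb and distal tubule and 5 tested immune genes, and 1 fell in each of the collecting duct (Fxyd4) and the fibroblast and mural list (Acta2). Median log2 changes were -0.31 for endothelial, -0.35 for thick ascending limb and distal tubule and -0.10 for immune genes. They were -0.34 for collecting duct and -0.24 for fibroblast and mural genes, against -0.03 over all genes. In ARLmon/Y no gene of these lists passed the test for testosterone. Under testosterone, 6 of 6 podocyte, 4 of 6 endothelial and 3 of 6 thick ascending limb and distal tubule genes were higher in ARLmon/Y than in wild type. So were 3 of 7 collecting duct, 2 of 6 fibroblast and mural, 2 of 5 immune and 4 of 8 injury genes. None was lower, beside 15.6% of all genes tested called higher and 15.5% lower. The part of these lists in the Kap result was not tested.

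The counts of calls among the genes beside Kap on chromosome 6 were near those over all genes. The 10 nearest tested genes lay up to 3281 kb away below and from 182 kb away above. Of them 1, Etv6, an ETS family transcription factor 182 kb from Kap, rose with testosterone in wild type, from 45.3 ± 4.37 to 82.5 ± 11.3 CPM (SD, n = 5 each, log2 change 0.87 ± 0.11 SE, edgeR adjusted p 9.76e-06). It stood at 40.0 CPM in ARLmon/Y on vehicle and 45.8 CPM with testosterone, and its response differed between the genotypes (log2 difference -0.67 ± 0.16 SE, adjusted p 0.0138). Under testosterone 3 of the 10 differed between the genotypes, Etv6 being lower and Styk1 and Mansc1 higher in ARLmon/Y, and on vehicle Mansc1 alone did. Over all genes tested, 31.1% were called between the genotypes under testosterone, 4.37% on vehicle, and 9.36% were called higher with testosterone in wild type.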

How the data were processed

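Kidney RNA of 20 libraries was sequenced on an Illumina HiSeq4000 after TruSeq stranded mRNA preparation, per the labels' protocols. The submitters' processing notes list FastQC 0.11.7, HISAT2, SAMtools 1.5, HTSeq 2.7.14, DESeq2 and the build mm10. The annotation and strand setting are not given in the sources used here. The authors deposited whole-number counts per gene in 4 tables of 10 libraries each and 1 table of normalised log2 values. How the deposited log2 values were normalised is not given in the sources used here. Columns carry library codes that name a group and no replicate number.

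The tables were joined by gene (24762 genes). Values repeated between tables differed in 0 cases, and 12045 values in 1713 genes missing from a table, where the lowest sum over a gene's libraries was 2 counts, were set to 0. The test of counts was edgeR's quasi-likelihood test (version 4.0.16, R 4.3.3) on the 15549 genes kept by filterByExpr, with TMM factors, 4 group means, 16 residual degrees of freedom and a Benjamini-Hochberg threshold of 0.05. The procedure was tested on simulated counts. limma 3.58.1 and DESeq2 1.42.0 gave alternatives. Per-library log2 CPM used a prior count of 2, and relations used 100000 permutations within groups. Exon lengths and positions came from GENCODE M21 (GRCm38, the same assembly as mm10).

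The gene and all lists were chosen with earlier results of these data known. Genes named beside Kap were Odc1, Slco1a1 and up to 3 extremes each way of the androgen-raised list, up to 2 of smallest p from other lists with every called hormone receptor or factor, the 5 most and 5 least like Kap, its 5 nearest tested neighbours on each side, and genes of like abundance. Depth ran from 8342000 to 38101526 counts. One gene is not reported here.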

Additional observations from a re-analysis of the deposited data

Results flagged for a closer look

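In 24 sets of 5 libraries (6 genes in 4 groups), 1 library stood farther from the rest than Dixon's 95% critical value of 0.71 allows in 5 sets. About 1 in 20 sets would do so by chance, but the sets are not independent, since Coasy, Slc22a2 and Abcc4 were chosen for following or opposing Kap over these libraries. Kap (28585 CPM), Odc1 (262 CPM) and Coasy (268 CPM) were each highest in wild type vehicle library GC078604. Abcc4 was highest in wild type testosterone library GC078611 (37.3 CPM) and lowest in ARLmon/Y testosterone library GC078612 (126 CPM).

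The log2 effect of testosterone in ARLmon/Y minus that in wild type passed the test of the difference itself (edgeR, adjusted p under 0.05) for Kap (-1.76) and other named genes. Of the androgen-raised genes it was lower for Odc1 (-2.97), Slco1a1 (-6.06), Ccl28 (-4.48) and Angptl7 (-3.95) and higher for Agt (1.38). Among receptor partners and hormone receptors it was -1.42 for Fkbp5 and 4.13 for Prlr. Among tubule markers it was -0.92 for Slc22a6, -0.72 for Slc27a2, -1.93 for Atp11a and -1.87 for Slc22a30. Among markers of other cells or of injury it was 0.52 for Podxl, 0.84 for Acta2 and 1.66 for Spp1. The genes most like or most opposite to Kap over all 20 libraries were chosen on these libraries, where Kap has such a difference, so their values are a description and no separate result. Of the genes most like Kap it was -0.91 for Coasy, -1.05 for Slc22a2, -1.61 for Acy3, -2.13 for Cndp2 and -0.40 for P4hb. Of those most opposite it was 0.77 for St3gal2 and 1.26 for Abcb1a. For Myrf, chosen as opposite to Kap with group means removed, it was 0.94. For the neighbour Etv6 it was -0.67.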

How the results depend on the processing

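No paired analysis was possible because the table columns carry library codes and no replicate numbers. Over 12 other settings (scaling, filter, tool, libraries used, a covariate) the Kap effect of testosterone in wild type stayed called, from 1.27 to 1.80 log2, as did the genotype difference under testosterone (-2.63 to -2.36), and over 11 settings the difference of the effects (-1.77 to -1.55). Leaving out each library in turn gave 1.30 to 1.80, -2.71 to -2.53 and -2.14 to -1.39 for these, all called. The ARLmon/Y testosterone minus wild type vehicle difference lost its call with limma on the deposited log2 values (-1.01), with only the libraries of those 2 groups (-1.20, adjusted p 0.0612) and in 7 of 20 fits with 1 library left out (range -1.31 to -0.81). The testosterone effect in ARLmon/Y, never called, ran from -0.51 to 0.0235 with 1 library left out, and was 0.0235 without both GC078604 and GC078618. The genotype difference on vehicle ran from -1.22 (without GC078618, called) to -0.47 (without GC078604) with 1 library left out and was called without both libraries (-0.84) and with the within-group axis as a covariate (-0.84). The within-group relation of Kap with the axis changed sign without its 2 farthest libraries (-0.15) and when recomputed without those 2 (-0.34, added after seeing the data), and that with straight-part markers without its 2 farthest (-0.12). Library size alone moved the median log2 change of all genes from -0.03 to -0.18 in wild type and from 0.04 to 0.28 between genotypes under testosterone. DESeq2 called 751 genes against 471 by edgeR between ARLmon/Y testosterone and wild type vehicle. Total counts of at least 8342000 per library do not limit Kap, whose counting error is far below the spread between libraries. The causes were not tested.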
